A study of Sus scrofa with 14 samples.

Results

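The apolipoprotein genes are described here in the fat of wild boars and Bama pigs. The members were taken from a list of 10 gene symbols: APOA1, APOA2, APOA4, APOB, APOC3, APOD, APOE, APOH, APOM and APOL3. Of these, 9 were found among the 21280 genes with a deposited count and TPM, by the pig symbol of the Ensembl identifier. Positions below are those of RefSeq genes of the same symbol on Sscrofa11.1. The remaining name, APOL3, was not matched to an identifier here.

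The study compared the upper layer of backfat (ULB), a subcutaneous depot, with the greater omentum (GOM), a visceral depot, in female pigs aged 2 years. There were 2 wild boars, taken from the wild early in life, and 2 Bama pigs, a fat-type breed of South China. All animals lived on the same farm, were fed alike and were fasted before slaughter. RNA-seq (rRNA-depleted total RNA) and Hi-C, which maps chromosome contacts, gave 7 libraries each, with 2 from each depot of wild boar, 2 from Bama pig GOM and 1 (replicate 2) from Bama pig ULB. RNA came from the tissue, whereas the Hi-C nuclei came from the layer of the homogenate that held the fat cells. With 2 animals to a breed, a difference between breeds cannot be told apart from a difference between these animals.

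Apolipoproteins are the protein part of lipoproteins, the particles that carry cholesterol and triglyceride in blood. APOB is the backbone of the triglyceride-rich particles, APOA1, APOA2 and APOA4 sit mainly on high-density lipoprotein, APOC3 slows the clearance of triglyceride, and APOE is a ligand of the low-density lipoprotein receptor family. APOD and APOM are lipocalins, small carriers of lipids, and APOH is a plasma glycoprotein that binds phospholipids. Liver and intestine are the main sources of most of these proteins, but APOE is also made by fat cells and macrophages, and APOD by many peripheral tissues.

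The total of estimated counts ran from 10833153 to 18627076 over the libraries. Genes known from fat cells were high in each: FABP4, a fatty acid carrier, was at 4997 to 9823 TPM and the hormone ADIPOQ at 2387 to 5332 TPM. A single library stood apart in skeletal muscle genes, wild boar ULB replicate 1, where 3 such genes summed to 291 TPM against 2.03 to 6.41 TPM in the other 6. Red blood cell genes summed to 172 to 1427 TPM in Bama pig and 1966 to 12603 TPM in wild boar.

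Levels are given as TPM, the share of a library's transcripts after scaling for transcript length, and can be compared between genes. By the mean over the 7 libraries, the order was APOE (691 ± 200 TPM, SD, n = 7), APOD (329 ± 291), APOA1 (179 ± 30.8), APOC3 (17.2 ± 21.7), APOH (8.74 ± 15.3), APOB (2.40 ± 3.46), APOM (2.24 ± 0.868), APOA2 (1.5 ± 2.24) and APOA4 (0.800 ± 1.68). Of the 8 pairs of neighbours in this order, only APOA1 and APOC3 had ranges that did not overlap, with APOA1 the higher in 7 of 7 libraries. APOE exceeded APOD in 6 of 7 libraries, and APOD exceeded APOA1 in 4 of 7. APOB exceeded APOM in 2 of 7 libraries, although its mean was the higher of the pair.

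**Figure D1:**
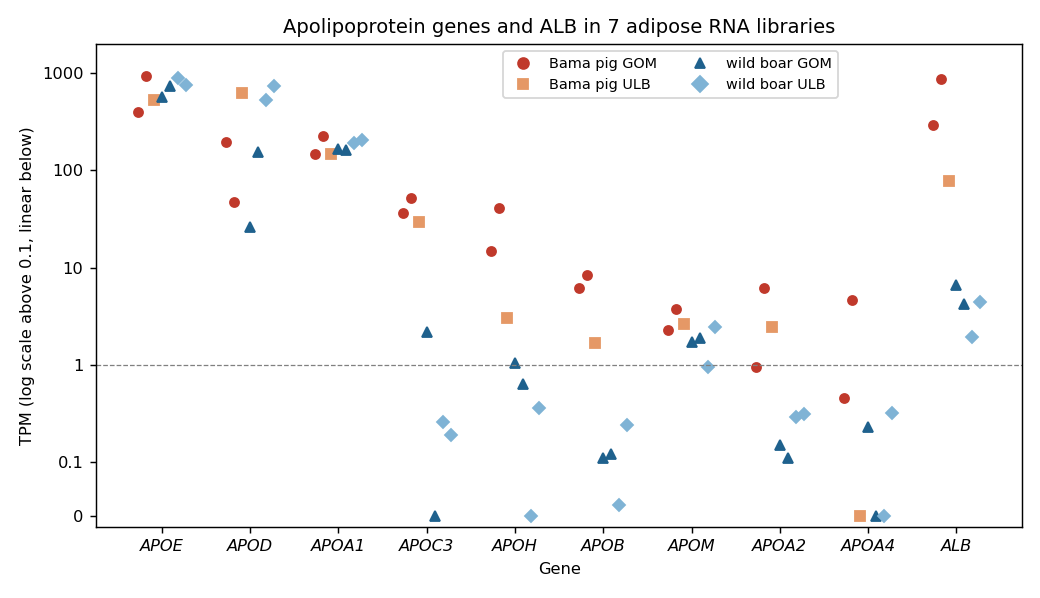
TPM of the 9 apolipoprotein genes, ordered by mean, and of ALB in each of the 7 RNA libraries (y axis logarithmic above 0.1 TPM and linear below; the dashed line is 1 TPM). The symbols of all groups lie close together for APOE and APOA1, whereas the 3 Bama pig libraries lie above the 4 wild boar libraries for APOC3, APOH, APOB, APOA2 and ALB.

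Of the 9 members, 3 were at 1 TPM or more in each library: APOA1, APOD and APOE. Of all genes listed, 53.0% met the same limit. APOE (ENSSSCG00000003088, chr6:51373113-51375333), the receptor ligand, was at 401 and 944 TPM in Bama pig GOM and 526 TPM in Bama pig ULB. It was at 571 and 735 TPM in wild boar GOM and 904 and 752 TPM in wild boar ULB. The lowest and the highest library both belonged to Bama pig GOM, so the groups overlapped. APOE was among the 241 most abundant genes of each library, at rank 124 to 241.

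APOA1 (ENSSSCG00000030921), the main protein of high-density lipoprotein, was the steadiest member, with a coefficient of variation of 17.2% and a highest library 1.55 times the lowest. Its level was 147 and 227 TPM in Bama pig GOM and 146 TPM in Bama pig ULB, and 168, 163, 193 and 206 TPM in the wild boar libraries (GOM, then ULB). Bama pig libraries were both the lowest and the highest, and the breeds and depots overlapped. APOM (ENSSSCG00000001411, chr7:23768974-23773324), the lipocalin of high-density lipoprotein, was low but present throughout, at 2.30, 3.74 and 2.63 TPM in the Bama pig libraries (2 GOM, then ULB), 1.73 and 1.90 TPM in wild boar GOM, and 0.942 and 2.43 TPM in wild boar ULB. It missed the limit of 1 TPM in wild boar ULB replicate 1 alone.

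Macrophage genes, among which C1QC and C1QB were the most abundant, summed to 926 to 2259 TPM in GOM and 581 to 777 TPM in ULB. They stood highest in wild boar GOM replicate 1, where APOE was below its median of 735 TPM. Their part in the level of APOE was not tested.

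Another pattern was shared with ALB, which encodes serum albumin, the most abundant secreted protein of hepatocytes. ALB (ENSSSCG00000008948) was at 293 and 873 TPM in Bama pig GOM, 77.7 TPM in Bama pig ULB, and 6.60, 4.19, 1.95 and 4.42 TPM in the wild boar libraries (GOM, then ULB). Every Bama pig library lay above every wild boar library, and among the Bama pig libraries GOM replicate 2 was the highest and ULB the lowest. A gene was said to follow ALB when its TPM met both conditions. APOB, APOC3 and APOH did so, 3 of 9 members, against 1.19% of the 17934 genes with a TPM above 0.1 in at least 2 libraries.

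APOB (ENSSSCG00000008595, chr3:117250096-117316200) was at 6.15 and 8.46 TPM in Bama pig GOM and 1.66 TPM in Bama pig ULB. In wild boar it was at 0.113 and 0.125 TPM in GOM and 0.0175 and 0.244 TPM in ULB. These values rested on 691, 787 and 156 estimated counts in Bama pig and on 2 to 26 counts in wild boar. The breeds did not overlap, and the lowest Bama pig library was the backfat.

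APOH (ENSSSCG00000040910, chr12:12827195-12839172) was at 14.7 and 41.4 TPM in Bama pig GOM and 3.06 TPM in Bama pig ULB. In wild boar it was at 1.04 and 0.627 TPM in GOM and 0 and 0.362 TPM in ULB, from at most 7 counts a library. Its level fell in the same order as ALB in Bama pig, and as a percentage of ALB it was 5.03, 4.73 and 3.94 in the 3 Bama pig libraries. In wild boar, on those few counts, the percentage was 15.8 and 15 in GOM and 0 and 8.21 in ULB.

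APOC3 (ENSSSCG00000015069) was at 36.1 and 51.9 TPM in Bama pig GOM and 29.5 TPM in Bama pig ULB. In wild boar it was at 2.19 and 0 TPM in GOM, where the higher value came from 12 counts, and at 0.255 and 0.185 TPM in ULB, from 1 count each. The gap between the breeds was wide, but the Bama pig libraries lay closer together than for ALB: as a percentage of ALB, APOC3 was 12.3, 5.95 and 37.9. When TPM were rescaled to the same sum over the listed genes in each library, or replaced by TMM-normalised CPM (counts scaled to the library total), APOC3 no longer met the order within Bama pig, and APOB and APOH alone followed ALB.

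APOA2 (ENSSSCG00000006355, chr4:89237514-89239126), a protein of high-density lipoprotein, also lay higher in every Bama pig library, which makes 4 of 9 members with that separation, against 11.7% of the 17934 genes. It was at 0.963 and 6.21 TPM in Bama pig GOM, 2.47 TPM in Bama pig ULB, and 0.155, 0.111, 0.291 and 0.313 TPM in wild boar (GOM, then ULB). Unlike ALB, it was lowest in Bama pig GOM replicate 1, so it did not follow. APOA4 (ENSSSCG00000040689), an intestinal apolipoprotein, rested on a single library: it was at 4.6 TPM in Bama pig GOM replicate 2, from 51 counts, and at 0 to 0.458 TPM in the other 6, from at most 6 counts each.

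The fold between the pair of Bama pig GOM libraries differed among the members. ALB was 2.98 times higher in replicate 2 than in replicate 1, and APOH 2.80 times. APOB was 1.38 and APOC3 1.44 times higher, while APOA2 was 6.45 times higher. Other members that did not follow ALB were also higher in replicate 2, APOE 2.35, APOM 1.63 and APOA1 1.55 times. APOA4 was 10 times higher, on 51 counts against 6, and APOD was at 0.243 times its level in replicate 1. Over 21 hepatocyte marker genes other than ALB, this fold had a median of 2.80 and ranged from 0.276 to 8.07.

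**Figure D2:**
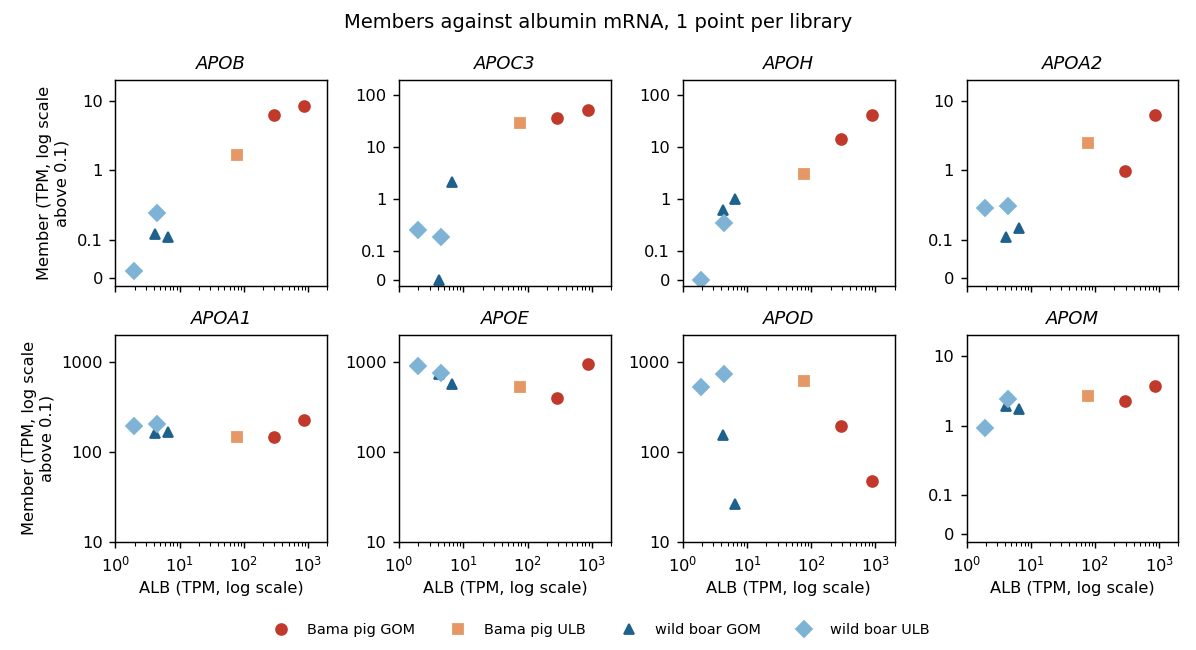
TPM of 8 members (y axis, logarithmic above 0.1 TPM) against TPM of ALB (x axis, logarithmic), 1 point per RNA library. APOB, APOC3 and APOH climb with ALB from the 4 wild boar libraries to the 3 Bama pig libraries. APOA1 lies between 146 and 227 TPM and APOE between 401 and 944 TPM, while ALB goes from 1.95 to 873 TPM. Both APOA1 and APOE are highest in the library with the highest ALB.

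Hepatocyte genes moved with this pattern. Of 25 listed markers, ALB included, 22 were in the table. Of the 21 other than ALB, 15 were higher in every Bama pig library than in every wild boar library (11.7% of genes), and 12 followed ALB (1.19% of genes). Their summed level without ALB was 93.7 to 686 TPM in Bama pig and 31.2 to 104 TPM in wild boar, so the sums overlapped, and with ALB it was 171 to 1560 TPM and 33.2 to 111 TPM. The fibrinogen chains FGG (46.5, 130 and 13.5 TPM in Bama pig, 0.281 to 1.93 TPM in wild boar) and FGB followed ALB, and ITIH1 was higher in every Bama pig library, whereas transferrin (TF) was at 79.9 TPM in wild boar GOM replicate 1 and overlapped between breeds. At 0 TPM were F9, a clotting factor, in both wild boar ULB libraries, and ASGR1, a hepatocyte receptor, in wild boar ULB replicate 1. In contrast, CYP2E1 was at 4.73 to 6.62 TPM in wild boar and at 3.53 TPM in Bama pig ULB. F2, G6PC1, C9 and KNG1 also overlapped between breeds. All markers in these 3 sentences were named after their values were seen. These markers' part in the levels of APOB, APOC3 and APOH was not tested. In bulk tissue, fewer cells of a type and less RNA per cell cannot be told apart.

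Markers of the intestinal lining showed no such separation as a list: 9 of 12 were in the table, and 1 (LGALS4) was higher in every Bama pig library. VIL1, a structural protein of the gut brush border, was at most 0.250 TPM and the intestinal fatty acid carrier FABP2 at most 1.02 TPM. ANPEP, an aminopeptidase, made up most of the list's sum of 7.93 to 79.7 TPM.

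The breeds were tested in GOM, where each had 2 libraries, with edgeR's quasi-likelihood F test over 16615 genes. Genes were called where the p adjusted by Benjamini-Hochberg was below 0.05 and the log2 fold change was beyond 1 in size. APOB was 1 of the 4 genes called, 0.0241% of those tested (0.0120% were called lower in wild boar), and it was lower in wild boar by a log2 fold change of -5.34 (SE 0.51, adjusted p = 0.0455). By TPM, its Bama pig mean in GOM was 61.5 times that of wild boar. The call was lost without Bama pig GOM replicate 1 (adjusted p = 0.176) and without replicate 2 (0.297), and over all alternatives the adjusted p ran from 1.72e-17 to 0.297.

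The other low members lay on the same side in GOM and were not called. The log2 fold change was -4.45 for APOH (SE 0.84, adjusted p = 0.386), -4.82 for APOC3 (SE 1.15, adjusted p = 0.542) and -6.22 for ALB itself (SE 0.72, adjusted p = 0.103). Without wild boar GOM replicate 1 the log2 fold change was -4.74 for APOH, -10.67 for APOC3 and -6.44 for ALB. Without replicate 2 it was -4.23, -3.84 and -6.05. Wild boar GOM replicate 2 had 0 counts of APOC3, so the -10.67 is a fold against 0 and has no steady size. ALB was called without a gene filter (edgeR adjusted p = 0.00364) and by DESeq2 (8.15e-23), but not with upper-quartile scaling (edgeR adjusted p = 0.0658). DESeq2, which called 167 genes, 1.01% of those tested, called APOB and APOH among the members (APOH, adjusted p = 1.98e-05). With every GOM library kept, the adjusted p of APOH under alternatives lay between 1.98e-05 and 0.297, and that of APOC3 between 0.13 and 0.526.

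APOA2 and APOA4 had too few counts in wild boar GOM for a steady fold. APOA2 had 87 counts in the pair of Bama pig GOM libraries and 4 in the wild boar pair, a ratio per total count of 20.8 with an exact 95% interval of 7.84 to 78.1. For APOA4, 57 and 3 counts gave a ratio of 18.2 with an interval of 5.91 to 90.7. These intervals cover counting error only, and edgeR called neither (log2 fold change -4.21 and -4.00, adjusted p = 0.583 and 0.616). Much of the difference rested on Bama pig GOM replicate 2, without which the log2 fold change was -2.23 for APOA2 and -1.42 for APOA4. With any other GOM library left out, it ran to -5.01 for APOA2 and to -7.91 for APOA4. The latter is a fold against wild boar GOM replicate 2, where APOA4 had 0 counts.

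No breed difference in GOM was detectable for APOE, APOA1, APOD and APOM. For APOE the log2 fold change was 0.54, with an interval of 2 SE from -0.77 to 1.86. For APOA1 it was 0.40 (-0.39 to 1.20), for APOD 0.29 (-1.47 to 2.06) and for APOM -0.13 (-1.41 to 1.15). The sign was not settled for any of them. TMM-normalised counts put APOE, APOA1 and APOD higher in wild boar, whereas mean TPM were 1.03, 1.13 and 1.35 times higher in Bama pig. For APOM the fold change was 0.36 without Bama pig GOM replicate 2 and 0.04 without wild boar GOM replicate 1. Over the 9 members the median log2 fold change was -4.00, the value of APOA4, beside -0.01 over all genes tested. The members were split, so this median does not describe a shift of the whole set. APOA2, APOA4, APOB, APOC3 and APOH lay at -4.00 or below, and the others between -0.13 and 0.54. APOA4 and APOC3 passed the gene filter through Bama pig GOM alone.

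**Figure D3:**
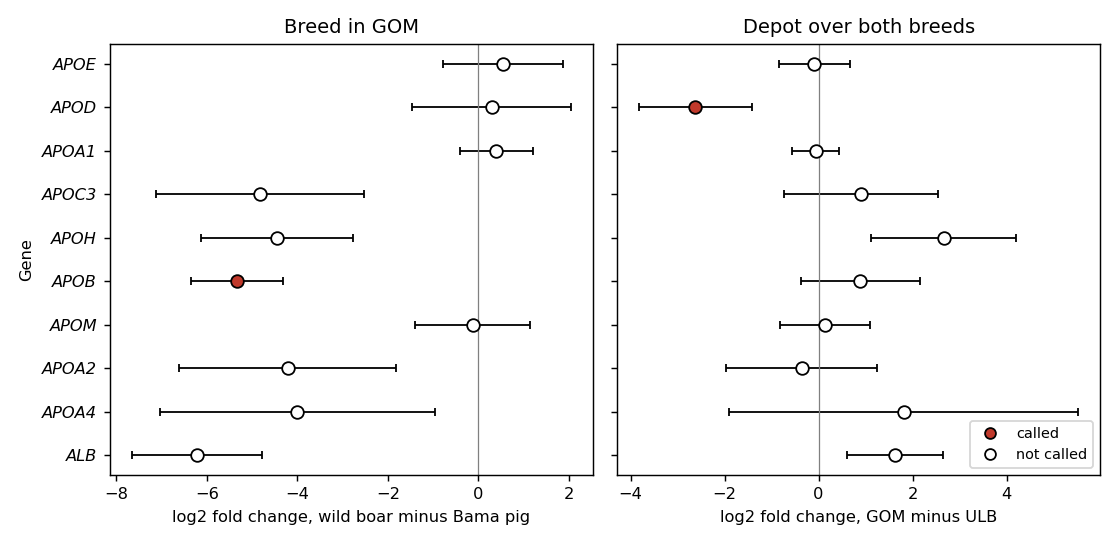
Fitted log2 fold changes of the members and ALB with bars of 2 SE, for wild boar minus Bama pig in GOM (left) and for GOM minus ULB over both breeds (right), from edgeR. APOB is the called member on the left at -5.34, and APOD the called member on the right at -2.62.

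APOA4, APOC3 and APOA1 are neighbours on chromosome 9, with levels far apart. In the RefSeq annotation of Sscrofa11.1, APOA4 lies at chr9:44201587-44204072 on the minus strand, APOC3 at chr9:44211171-44213538 on the plus strand and APOA1 at chr9:44216481-44218360 on the minus strand. Their start sites span 14.3 kb, with 7.19 kb between those of APOC3 and APOA1. APOA1 was 4.06, 4.36 and 4.96 times the level of APOC3 in the Bama pig libraries (2 GOM, then ULB). In wild boar, APOA1 stayed at 163 to 206 TPM while APOC3 was at 0 to 2.19 TPM.

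The promoters of these neighbours are shown because the levels of the genes lay so far apart. Each window runs from 250 bases before to 50 bases after the RefSeq start site (Sscrofa11.1) and is written 5′ to 3′ along the gene. Capitals mark matches, on either strand, to AGGTCA, the half-site of many nuclear receptors, and to TATAAA, the TATA box. The windows are chr9:44204023-44204322 for APOA4, chr9:44210921-44211220 for APOC3 and chr9:44218311-44218610 for APOA1.
APOA4: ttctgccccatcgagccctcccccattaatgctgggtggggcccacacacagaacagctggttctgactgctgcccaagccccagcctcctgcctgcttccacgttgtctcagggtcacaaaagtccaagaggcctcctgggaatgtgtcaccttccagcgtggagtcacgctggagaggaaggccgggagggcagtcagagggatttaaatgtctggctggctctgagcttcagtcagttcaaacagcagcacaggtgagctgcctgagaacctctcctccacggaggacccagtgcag
APOC3: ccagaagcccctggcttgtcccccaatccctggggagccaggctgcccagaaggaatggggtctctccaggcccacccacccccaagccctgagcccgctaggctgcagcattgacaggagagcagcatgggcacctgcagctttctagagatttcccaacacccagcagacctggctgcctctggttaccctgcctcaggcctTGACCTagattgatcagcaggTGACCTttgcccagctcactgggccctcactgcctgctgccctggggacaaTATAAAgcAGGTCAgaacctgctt
APOA1: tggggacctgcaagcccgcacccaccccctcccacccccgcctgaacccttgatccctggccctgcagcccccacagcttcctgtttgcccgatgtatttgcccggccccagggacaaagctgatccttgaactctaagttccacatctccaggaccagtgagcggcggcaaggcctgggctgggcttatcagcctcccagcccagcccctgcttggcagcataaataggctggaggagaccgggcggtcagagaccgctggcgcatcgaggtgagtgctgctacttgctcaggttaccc

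APOC3 held AGGTCA at 3 places, with the leftmost base at -46 and -25 on the opposite strand and at 35 on its own, and TATAAA at 27. RefSeq lists 4 start sites for APOC3 over 731 bases, of which the outermost was used. No match to these letters lay in the windows of APOA1 and APOA4. Among 13061 promoters of the same length, 13.1% held AGGTCA and 8.96% TATAAA, so a match is a description of the letters and not of a bound factor.

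The depots differed for 1 member. APOD (ENSSSCG00000011831, chr13:132514546-132562594), the lipocalin made by many peripheral tissues, was at 196 and 47.6 TPM in Bama pig GOM and 26.1 and 154 TPM in wild boar GOM. In ULB it was at 624 TPM in Bama pig and at 525 and 732 TPM in wild boar. Every GOM library lay below every ULB library, which held for 2.64% of the 17934 genes and for no other member. The ULB mean was 5.92 times the GOM mean, 627 ± 104 TPM (SD, n = 3) against 106 ± 82.0 TPM (SD, n = 4). APOD was also the member that varied most among those made by all libraries, with a highest library 28.1 times the lowest, and within each breed its pair of GOM libraries differed widely.

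**Figure D4:**
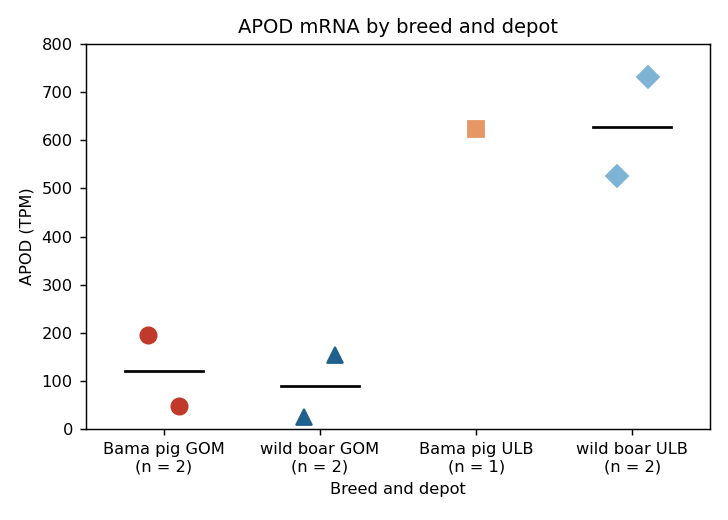
TPM of APOD in each RNA library by breed and depot (points are libraries, black lines are means of 2 libraries). The 3 ULB libraries lie between 525 and 732 TPM, all above the 4 GOM libraries, which lie between 26.1 and 196 TPM.

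The test of GOM against ULB used all 7 libraries, with breed as a term, over 17934 genes. Both depots came from the same pigs, but the labels do not tie a library to an animal, so the fit treats the libraries as independent. APOD was called, lower in GOM by a log2 fold change of -2.62 (SE 0.60, adjusted p = 0.0400), where 1.22% of genes were called lower and 3.50% in either direction. Without a single library the fold change stayed between -3.65 and -2.26, but the call was lost without Bama pig GOM replicate 2 (adjusted p = 0.0603), Bama pig ULB replicate 2 (0.231), wild boar ULB replicate 1 (0.0729) or wild boar ULB replicate 2 (0.0935). Over all alternatives its adjusted p ran from 8.44e-05 to 0.231.

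Genes of other cells also moved between the depots. Mesothelial WT1 was at 19.9 to 83.7 TPM in GOM and 0 to 0.253 TPM in ULB, and the 3 listed mesothelial genes in the table summed to 25.9 to 99.6 TPM and 0.422 to 3.35 TPM. Fibroblast genes summed to 3391 to 4677 TPM in GOM and 4840 to 8111 TPM in ULB, and of 8 such genes DPT and PI16 were called higher in GOM, DPT with a log2 fold change of 2.60 (SE 0.34, adjusted p = 0.0026). The collagen genes COL1A1 (50.2 to 169 TPM in GOM, 216 to 721 TPM in ULB) and COL3A1 (492 to 1474 and 2085 to 3564 TPM) were, like APOD, lower in every GOM library than in every ULB library, without a call (adjusted p = 0.0959 and 0.164). None of 9 fat-cell genes was called by edgeR. LEP (52.1 to 143 and 147 to 254 TPM), named after its values were seen, was lower in every GOM library (log2 fold change -1.36, SE 0.33, edgeR adjusted p = 0.053). FABP4 (4997 to 8298 and 8299 to 9823 TPM) was too, but its depots all but met. Its log2 fold change was -0.5 (SE 0.33, edgeR adjusted p = 0.446). The part of these cells in the level of APOD was not tested. Without wild boar ULB replicate 1, the library with the muscle genes, the log2 fold change of APOD was -2.74.

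APOH had a log2 fold change of 2.66 for GOM over ULB (SE 0.77, adjusted p = 0.0924) and was not called. Its depots overlapped, since Bama pig ULB at 3.06 TPM lay above both wild boar GOM libraries. DESeq2 called it (adjusted p = 0.0147) along with 7.19% of genes, and over all alternatives the adjusted p lay between 0.0147 and 0.38. For ALB the log2 fold change was 1.62 (SE 0.51, adjusted p = 0.121), and DESeq2 called it too (adjusted p = 0.0167). The intervals of 2 SE ran from -0.38 to 2.15 for APOB, -0.74 to 2.54 for APOC3, -1.97 to 1.25 for APOA2, -1.91 to 5.54 for APOA4, -0.86 to 0.67 for APOE, -0.56 to 0.45 for APOA1 and -0.82 to 1.08 for APOM, and none of these was called. The median over the members was 0.13, beside 0.04 over all genes tested.

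In wild boar alone, with 2 libraries of each depot, none of the 8 members tested was called, while 1.97% of 16183 genes were, and APOA4 was not tested. APOD had a log2 fold change of -2.51 (SE 0.78, adjusted p = 0.147) and APOH of 2.47 (SE 1.10, adjusted p = 0.257). The depot difference itself was compared between breeds with an interaction term over 17934 genes, in which the single Bama pig ULB library was assumed to vary like the other groups. edgeR called 0 genes at these thresholds (834 had an unadjusted p below 0.05) and DESeq2 called 52 (0.290%), none of them a member. For APOD the depot difference was larger in Bama pig by 0.41 on the log2 scale (SE 1.27), and its interval of -2.12 to 2.95 spans both signs.

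Chromatin was read at the 20-kb bin that holds each start site, from the first principal component of the contacts (PC1). A value above 0 marks compartment A, the open and gene-rich part of the nucleus, and a value below 0 compartment B. In all 7 Hi-C libraries 7 of 9 members lay in A, where 78.4% of 13061 start-site bins of placed genes did so. The bin chr9:44200001-44220000 holds all 3 start sites of APOA4, APOC3 and APOA1, so these share a PC1 of 39.0 to 55.6. APOM was at 50.5 to 58.0, among the top values of chromosome 7, APOE at 54.7 to 59.5 and APOA2 at 35.2 to 44.1. APOD was at 51.4 to 69.0 in the bin of its outermost start site and at 46.7 to 69.0 over the bins of its 3 start sites.

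APOB and APOH lay in B in each library, as did 1309 of those 13061 start-site bins. APOB was read at the outermost of its 2 RefSeq start sites, which lie 25885 bases apart. The bin of the other start site is not given here. For APOB, PC1 was -32.9 and -33.1 in Bama pig GOM, -44.5 in Bama pig ULB, -47.1 and -36.2 in wild boar GOM, and -46.6 and -40.0 in wild boar ULB. The Bama pig GOM libraries had the highest values, and Bama pig ULB lay within the range of wild boar. APOH was close to 0, at -7.9 to -1.1. ALB, whose mRNA these genes followed, lay at the border, at 0.8, 1.8 and 3.0 in the Bama pig libraries, -7.1 and -4.8 in wild boar GOM and 3.8 and -0.4 in wild boar ULB. None of the members had PC1 of a different sign in the breeds or in the depots, a pattern found in 0.153% and 0.880% of all bins.

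**Figure D5:**
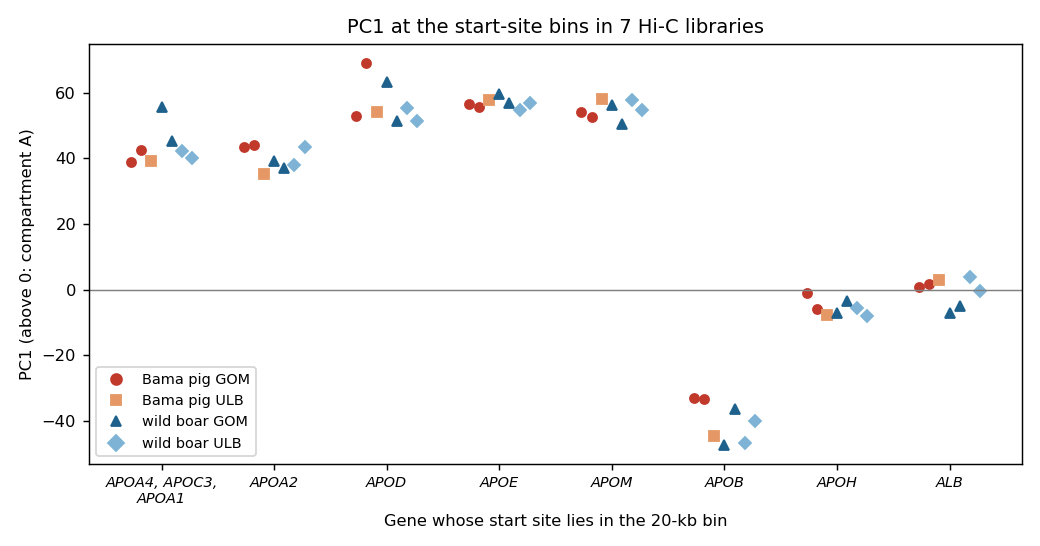
PC1 in each of the 7 Hi-C libraries at the 20-kb bins that hold the start sites of the members and of ALB (y axis, above 0 is compartment A). The members lie on the same side of 0 in all libraries, APOB and APOH below it, and the ALB bin lies between -7.1 and 3.8.

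Topologically associating domains (TADs), stretches of chromosome that contact themselves, were listed once per breed and depot on merged replicates, so they have no spread. The chromosome 9 cluster lay in the domain chr9:44120001-44520000 in 3 lists and in chr9:44160001-44520000 in wild boar ULB. APOD lay in a domain of 300 kb in 3 lists and 320 kb in wild boar ULB, with its start site 17.4 kb and 37.4 kb from the nearest edge. The domain of APOB varied more, at 100 kb in Bama pig GOM, 540 kb in Bama pig ULB and wild boar GOM, and 1440 kb in wild boar ULB. APOH lay 0.828 kb outside the nearest domain edge in Bama pig GOM and wild boar ULB, and inside a domain of 440 kb in Bama pig ULB and 520 kb in wild boar GOM.

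Other genes of lipoprotein traffic were read beside the members. Of 30 listed, 26 were in the table, 15 of them at 1 TPM or more in each library, and the most abundant was LPL, the lipase that frees fatty acids from circulating triglyceride, at 839 to 1871 TPM. In GOM edgeR called 0 of the 26 between breeds, beside 0.0241% of all genes tested, with a median log2 fold change of 0.02. DESeq2 called 1 of the 26 there. In 6 of the 26 every Bama pig library was the higher (11.7% of genes), and 3 followed ALB (1.19% of genes), with SCARB2 the most abundant of the former. After their values were seen, MTTP and LIPC were picked out of those that followed ALB. MTTP, which loads lipid onto APOB, was at 0.919, 2.22 and 0.242 TPM in Bama pig (2 GOM, then ULB) and 0 to 0.232 TPM in wild boar. The hepatic lipase LIPC was at 5.93, 6.93 and 4.50 TPM in Bama pig and 0.648 to 3.12 TPM in wild boar. Neither was called in GOM (adjusted p = 0.616 and 0.714).

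Between depots 1 of these 26 was called, beside 3.50% of all genes tested. It was ANGPTL4, an inhibitor of LPL, which was lower in GOM by a log2 fold change of -1.78 (SE 0.39, adjusted p = 0.0325). It was at 12.5 to 55.9 TPM in GOM and 39.1 to 98.7 TPM in ULB, and the depots overlapped through Bama pig GOM replicate 1. Among 6 other genes with an apolipoprotein name or role, of 19 listed, CLU (clusterin, also called apolipoprotein J) went the opposite way to APOD. It was at 384, 286, 412 and 300 TPM in GOM (Bama pig, then wild boar) and 97.1, 106 and 113 TPM in ULB. The log2 fold change was 1.67 (SE 0.27, adjusted p = 0.00756), and no GOM library overlapped with ULB.

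Of 19 regulators of these genes, PPARG, CEBPA and RXRA were the most abundant, PPARG at 113 to 216 TPM. Between breeds in GOM edgeR called 0 of 16 tested, beside 0.0241% of all genes. Between depots it called 0 of 18, beside 3.50% of all genes, and DESeq2 called 1. The liver factor HNF4A was low, at 0.344 to 1.31 TPM, with wild boar GOM replicate 1 at 1.23 TPM. The bile acid receptor NR1H4 was the 1 regulator that followed ALB, at 0.338, 1.37 and 0.300 TPM in Bama pig and 0.0180 to 0.143 TPM in wild boar. HNF4A and NR1H4 were named after their values were seen.

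The genes most like APOB, APOD and APOE were sought over the 7 libraries by Pearson's r of log2(TPM + 0.1), among 11517 genes with a symbol and a mean of at least 1 TPM. As all points share 7 libraries, r is a description. For APOB they were SPATA1 (r = 0.996), ALB (0.988), the vitamin D carrier GC (0.987), FGG (0.986) and CLUH (0.984). Of these, SPATA1 spanned only 4.41 to 23.4 TPM and CLUH only 21.9 to 34.3 TPM. For APOD they were GPR160 (0.983), NOCT (0.960), GTF2F2 (0.959), OPTN (0.957) and the metalloprotease MMP27 (0.957), which was at 0.165 to 2.64 TPM in GOM and 19.7 to 65.5 TPM in ULB. For APOE they were led by MGST3 (0.992), an enzyme of glutathione metabolism, at 178 to 576 TPM, with TRAPPC2L, NUBPL, MCRIP2 and PITHD1 next.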

How the data were processed

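Values came from GOM and ULB of wild boars and Bama pigs. The authors quantified RNA-seq with kallisto (version 0.43.0 per the labels) against Sscrofa11.1 and deposited an estimated count per gene, not normalized, and a TPM value per gene. Counts were rounded for testing. The Hi-C score deposited by the authors is PC1 per 20-kb bin from KR and quantile normalized contacts. Its file label is A-B index, but it has mean 0 on each chromosome. TADs were called on merged replicates.

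Genes were tested with edgeR 4.0.16 (TMM, quasi-likelihood F test) in R 4.3.3, after a filter that asked for a TPM above 0.1 in both libraries of either group, or in at least 2 libraries for fits over all 7. The SE given with an edgeR log2 fold change is the size of that change divided by the square root of the F statistic. An interval of 2 SE is therefore approximate and is not a 95% interval. DESeq2 1.42.0, upper-quartile scaling, other filters, a replicate block and leaving out each library were alternatives. Follow-ALB, PC1 and TAD results are descriptions and were not tested. Positions, start sites and sequences are from RefSeq, whose 18 autosomes match the Hi-C files in length. The Bama pig ULB replicate 1 library was not used here. On simulated data with 200 genes changed 8-fold, edgeR recovered 87.5% (breed in GOM), 97% (both breeds' depots), 93.5% (wild boar depots) and 42% (interaction). The changed genes were drawn only from those with higher expected counts. These shares therefore do not cover genes as low as APOA2, APOA4, APOC3 and APOH in wild boar. The simulated counts were independent draws with each gene's fitted spread, and 200 genes changed at once. In the data edgeR called 4 genes between breeds in GOM, and ALB, at a log2 fold change of -6.22, was not called. The shares are thus not the power reached in these libraries.

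All members and ALB are named. Of each list, the 5 genes with the highest mean TPM may be named, and any other was chosen after its values were seen. The members and lists were chosen with earlier results of these data known. Other values were computed with Python 3.11.15, pandas 2.3.3 and numpy 2.4.6.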

Additional observations from a re-analysis of the deposited data

How the results depend on the processing

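Of 236 log2 fold changes of single genes under alternatives, 197 kept their direction and side of the thresholds, 6 lost a call, 16 gained one and 17 changed sign, none of them called. In GOM, DESeq2 called 2 members between breeds in place of 1, and leaving out a library gave 0 to 3. Over all genes the 4 calls became 167 with DESeq2, 26 without a filter and 0 to 123 with a library left out. For the depots over both breeds, DESeq2 called 2 members in place of 1, and leaving out a library gave 0 or 1. The 628 genes called became 1289 with DESeq2, 999 without a filter and 237 to 672 with a library left out. In wild boar alone, 318 genes became 1318, 608 and 44 to 227, and leaving out a library gave 0 or 1 member. For the interaction, 0 became 52, 7 and 0 or 1. When Bama pig GOM replicate 1 or Bama pig ULB replicate 2 was left out, 5 members followed ALB in place of 3, and the range over left-out libraries was 3 to 5. The cause of these shifts was not tested.

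Replicate numbers in the labels are not said to mark an animal, and the same-numbered libraries' differences had r = 0.196 between wild boar depots and 0.195 between breeds in GOM (14163 genes). With a replicate block, 15 genes were called between breeds in GOM and 1623 in wild boar depots, where APOD became the 1 called member (log2 fold change -3.07, edgeR adjusted p = 2.1e-06). The block also called ALB between breeds in GOM (-5.99, edgeR adjusted p = 0.0254) and between depots (1.83, edgeR adjusted p = 0.0327). Between breeds it joins libraries of different animals by number alone, so its calls there do not come from a true pairing. Over both breeds' depots the block called 2 members, APOD (-3.44, edgeR adjusted p = 0.000582) and APOH (3.04, adjusted p = 0.0405). The block turned the sign of APOD between breeds in GOM (-0.01) and of APOA1 (0.06) and APOE (0.08) between depots.

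With a library left out, log2 fold changes that crossed 0 ranged from -1.74 to 1.55 (APOD, breed in GOM), -0.49 to 0.36 (APOM, breed in GOM), -0.19 to 0.06 (APOA1, depots), -0.34 to 6.63 (APOA4, depots), -0.12 to 2.48 (APOC3, depots), -0.37 to 0.08 (APOE, depots), -0.17 to 0.37 (APOM, depots) and -1.58 to 1.67 (APOD, interaction). An arm left with 1 library was assumed to vary like the other groups. At wild boar levels of APOA2, APOA4, APOC3 and APOH, depth limits the fold: most values rest on fewer than 10 counts.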
